A study of Mus musculus with 6 samples.

Results

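The mitochondrial genome and the nuclear genes that copy, transcribe and process it were described in mouse embryoid bodies with and without induced Lef1. Members were chosen by name: every row of the authors' deposited table that names a gene whose symbol begins with mt-, and Polrmt, Tfam, Tfb1m, Tfb2m, Polg, Polg2, Elac2, Lrpprc, Slirp, Ptcd1 and Pnpt1. These were 19 of 36699 rows, 8 from the mitochondrial genome and 11 from the nucleus. Of the nuclear genes, 10 were listed under these symbols, and Slirp was found under 1810035L17Rik, an older symbol that RefSeq gives for it. The set was proposed with the values of this same comparison in view, so its values are a description and support nothing further.

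The samples were 3 libraries of plus_Dox embryoid bodies (numbered 1, 2 and 3) and 3 of minus_Dox embryoid bodies (numbered 1, 3 and 4). All came from A2Lox.cre mouse embryonic stem cells with a doxycycline-inducible Flag-Lef1 transgene and were harvested on day 3 of suspension culture as embryoid bodies, the aggregates in which stem cells begin to differentiate. The plus_Dox cells had doxycycline (Dox), the inducer, for the last 24 h and the minus_Dox cells had none. The minus_Dox cells therefore carried the transgene too, and no group had Dox without the transgene, so that effects of the drug and of Lef1 cannot be told apart. The labels name a single line and leave unsaid whether separate cultures were used for the libraries.

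The table holds 1 value per gene and group, in FPKM (fragment counts scaled to transcript length and to the size of the library), with no values of single libraries and no read counts, so the depth of the libraries is unknown. A row counts as called where the authors' q-value is under 0.05. In the authors' deposited table Lef1 stood at 51.0 FPKM in plus_Dox and 7.56 FPKM in minus_Dox. Stem cell and epiblast markers were present, from 30.9 to 1510 FPKM in plus_Dox and from 28.6 to 820 FPKM in minus_Dox for the 6 markers with values in both groups. Of these 6, 4 were called in the authors' deposited table: Nanog (109.7 FPKM in plus_Dox and 28.6 FPKM in minus_Dox), Dppa5a (524 FPKM in plus_Dox and 363 FPKM in minus_Dox) and Utf1 (362 FPKM in plus_Dox and 260.0 FPKM in minus_Dox) rose, and Sox2 (30.9 FPKM in plus_Dox and 56.2 FPKM in minus_Dox) fell. The part of this shift in stem cell markers in the members' folds was not tested. The 6 markers of fibroblasts, which served as feeder layer for the stem cells, summed to 22.6 FPKM in plus_Dox and 17.6 FPKM in minus_Dox. Thy1 made up 16.6 FPKM of the sum in plus_Dox and 11.9 FPKM of that in minus_Dox. None of the 6 was at 0 and none was called, and Dcn alone had a log2 fold below 0. Of all 18114 tested rows, 12.2% were called, 8.98% higher and 3.22% lower in plus_Dox. The median log2 fold over the 12240 tested rows with at least 1 FPKM was 0.20 rather than 0, and after its subtraction 618 rows were called higher and 1087 lower in plus_Dox, against 1626 and 584 in the authors' deposited table.

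Mitochondrial DNA is a small circle that encodes ribosomal RNAs, transfer RNAs (tRNAs) and core subunits of the respiratory chain. It is transcribed from both strands into long transcripts that span many genes, and the tRNAs that lie between the other genes mark where these transcripts are cut. All proteins that copy, transcribe, cut and protect this RNA are made from nuclear genes and imported.

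The deposited table resolved little of the mitochondrial genome itself. GENCODE vM21 annotates 37 mitochondrial genes, and 20 of them are named in the 8 rows: all 13 protein genes, 7 of 22 tRNA genes and 0 of 2 ribosomal RNA genes. The named tRNA genes are 7 of the 8 on the minus strand, and 0 of the 14 on the plus strand are named. The starts and ends of all 8 rows coincided with annotated gene ends. Only 1 row was tested by the authors. Another 6 carry the status HIDATA, which marks a locus too deep in reads for the program to fit, and mt-Tp, the proline tRNA gene, was not tested and is listed at 0 FPKM in both groups.

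**Figure D1:**
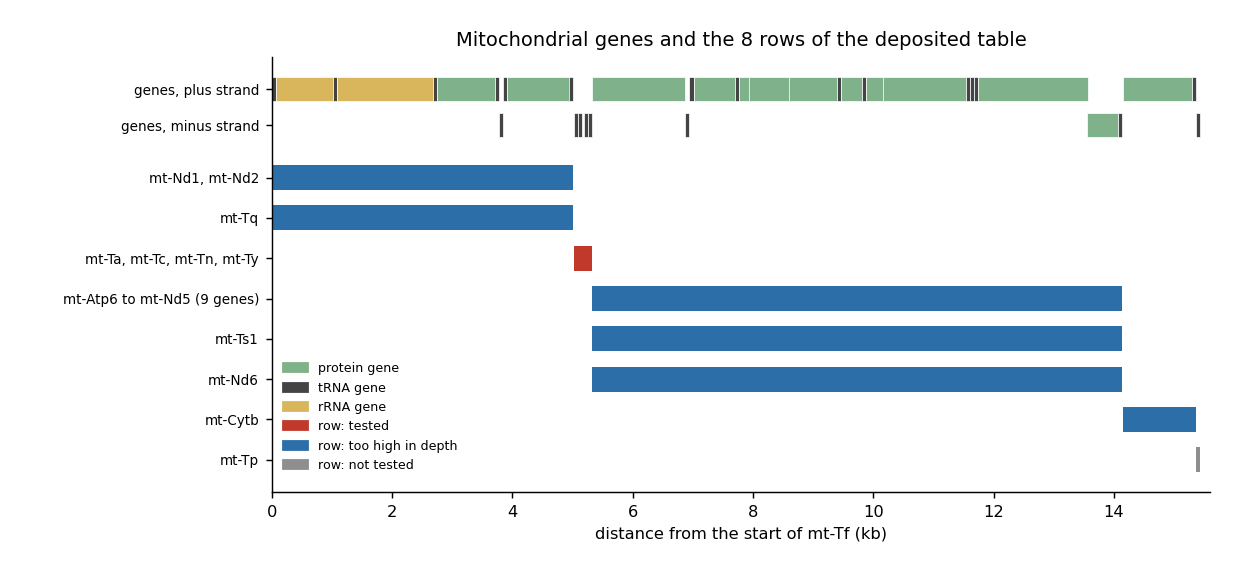
The upper tracks show the 37 annotated mitochondrial genes by strand and kind, and each bar below is a row of the deposited table, placed by distance in kb from the start of mt-Tf and coloured by the authors' status. The 1 tested row covers the cluster of 4 tRNA genes, while the 6 rows marked as too high in depth hold all 13 protein genes.

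The HIDATA rows hold the genes of the respiratory chain. One joins mt-Nd1 and mt-Nd2, subunits of complex I. Another joins 9 genes: mt-Nd3, mt-Nd4, mt-Nd4l and mt-Nd5 of complex I, mt-Co1, mt-Co2 and mt-Co3 of cytochrome oxidase, and mt-Atp6 and mt-Atp8 of ATP synthase. Both rows, and those of mt-Nd6, mt-Tq and mt-Ts1, are listed at 0 FPKM in plus_Dox and in minus_Dox. These zeros cannot be read as absence: 50 of the 98 HIDATA rows of the table are listed at 0 in both groups, Gapdh and Eef1a1 among them.

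The row of mt-Cytb, the gene of cytochrome b, is the exception among the 6. It covers positions 14145 to 15355 (build mm9), which in GENCODE vM21 hold mt-Cytb up to 15288 and then mt-Tt, the threonine tRNA gene that no row names. The authors' deposited table lists it at 2206 FPKM in plus_Dox and at 0 FPKM in minus_Dox, with the status HIDATA and no test. That 0 carries the same status as the others, so the pair of values carries no direction and no fold. Of the 98 HIDATA rows, 7 have a value in plus_Dox alone and 41 in minus_Dox alone. The listed 2206 FPKM in plus_Dox lies above the level of every nuclear member, the highest of which is Slirp with 186 FPKM in plus_Dox. No other protein gene of the mitochondrial genome has a level in either group.

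The tested row joins mt-Ta, mt-Tn, mt-Tc and mt-Ty, the tRNA genes for alanine, asparagine, cysteine and tyrosine. It covers positions 5018 to 5326 of the mitochondrial chromosome (build mm9, named in the submitters' processing notes), between mt-Tw and mt-Co1. All 4 genes lie on the minus strand. The 32 bases from 5160 to 5191, between mt-Tn and mt-Tc, hold no gene, and in mammals this gap is where replication of the light strand begins. The 4 gene sequences are shown because this row is the 1 mitochondrial measurement with a fold. They are taken from GENCODE vM21 (GRCm38), read along the minus strand from 5′ to 3′, and capitals mark the anticodon, found as the centre of a loop of 7 bases closed by a stem of 5 pairs.
mt-Ta: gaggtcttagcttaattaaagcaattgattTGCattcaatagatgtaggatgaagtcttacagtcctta
mt-Tn: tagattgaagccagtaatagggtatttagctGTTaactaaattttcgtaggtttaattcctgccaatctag
mt-Tc: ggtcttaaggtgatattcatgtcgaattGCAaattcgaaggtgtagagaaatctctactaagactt
mt-Ty: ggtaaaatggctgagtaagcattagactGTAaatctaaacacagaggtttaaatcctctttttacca
They occupy chrM:5018-5086 (mt-Ta), chrM:5089-5159 (mt-Tn), chrM:5192-5257 (mt-Tc) and chrM:5260-5326 (mt-Ty), and are 66 to 71 bases long with a GC content of 33.3% to 36.4%.

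This tRNA row fell by an order of magnitude. The authors' deposited table gives it 38.3 FPKM in plus_Dox and 399 FPKM in minus_Dox, a level 10.4-fold lower in plus_Dox. Its log2 fold of -3.38 had an SE of 0.24 and a 95% interval of -3.85 to -2.91, and the authors' q is listed as 0. It was the only tested row of the 8 mitochondrial rows, so no other could be called. Of all tested rows, 12.2% were called, 3.22% of them as lower in plus_Dox. Of the 584 falls called in the authors' deposited table, 2 were larger on the log2 scale, Gm9805 and Tbx22. Gm9805 had 0.372 FPKM in plus_Dox and 4.07 FPKM in minus_Dox (log2 fold -3.45). Tbx22 had 0.0087 FPKM in plus_Dox and 0.118 FPKM in minus_Dox (log2 fold -3.77). SEs were derived from the authors' test statistic, and the spread between the 3 libraries of a group cannot be seen. In bulk RNA, fewer cells of a type and less RNA per cell cannot be told apart.

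What this row counts is limited by how the libraries were made and by its size. Per the labels, RNA was captured on oligo-dT beads, and mature tRNAs lack the long tails of messenger RNAs; how far the row reflects mature tRNAs was not tested. Strand use in the counting was not stated in the labels, and the long plus-strand transcript crosses the same positions, so reads from either strand cannot be told apart. The 4 genes sum to 273 bases. Among the 102 other tested rows whose genes are at most 200 bases long, 2 were called (1.96%), Snord123 higher and Gm10060 lower in plus_Dox. The log2 folds of the 102 ranged from -2.15 to 4.45 with a median of 0.30. Only Mir1199 exceeded the tRNA row in absolute log2 fold, higher in plus_Dox and not called (SE 2.86, q = 0.375). The median SE of the 102 was 2.57, against 0.31 for all tested rows and 0.24 for the tRNA row. Levels differed too: Snord123 had 2.36 FPKM in plus_Dox and 1.43 FPKM in minus_Dox, and Gm10060 had 0.607 and 1.05 FPKM. The parts of gene length and level in these SEs and in the fold of the tRNA row were not tested.

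Of the nuclear members, Ptcd1 alone was called, higher in plus_Dox. Of the log2 folds of the tested members, 7 were above 0 and 3 below. With 10 of 11 tested, 1 was called higher, 0 were called lower and 9 were not called, beside 8.98% of all tested rows called higher and 3.22% called lower. Their median log2 fold was 0.15, and 5 of the 10 lay above and 5 below the median of rows with at least 1 FPKM. For the 9 that were not called, the 95% interval of the log2 fold included 0 in each case and the q-values ran from 0.317 to 0.968. Levels spanned 4.91 to 186 FPKM in plus_Dox and 5.76 to 133 FPKM in minus_Dox.

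**Figure D2:**
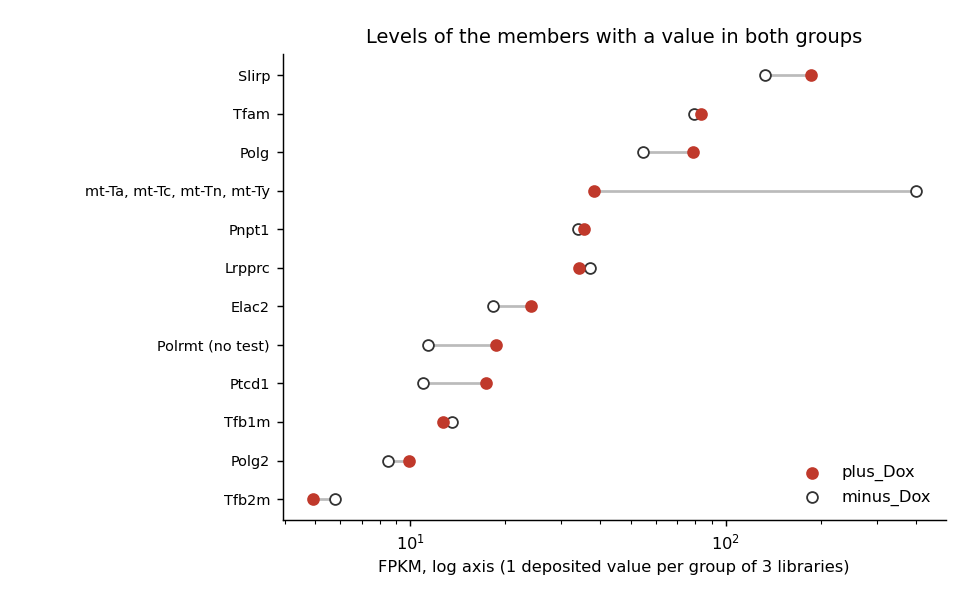
Each line joins the deposited FPKM of a member in plus_Dox (filled) and minus_Dox (open) on a log axis, with 1 value per group of 3 libraries and no error bars because single libraries have no values. By listed FPKM the tRNA row is mid-range in plus_Dox and above every nuclear member in minus_Dox. Whether FPKM of genes as short as these tRNA genes can be set beside those of the nuclear members was not tested. No nuclear member differs by more than 1.64-fold between the groups.

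Transcription of mitochondrial DNA needs the RNA polymerase Polrmt, the DNA-packaging and activating factor Tfam, and Tfb2m, which opens the promoter. Tfam was the most abundant of these, with 83.3 FPKM in plus_Dox and 79.4 FPKM in minus_Dox in the authors' deposited table (log2 fold 0.07 with an SE of 0.24, q = 0.968). The least abundant was Tfb2m, with 4.91 FPKM in plus_Dox and 5.76 FPKM in minus_Dox in the same deposited table of the authors (log2 fold -0.23, SE 0.29, q = 0.757). For Tfb1m, a methyltransferase that modifies the small ribosomal RNA, the authors' deposited table gives 12.7 FPKM in plus_Dox and 13.6 FPKM in minus_Dox (log2 fold -0.09, SE 0.20, q = 0.908). The 95% intervals of all 3 include no change, and the highest upper bound of the fold was 1.45, for Tfam.

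Polrmt could not be tested. It was listed at 18.6 FPKM in plus_Dox and 11.4 FPKM in minus_Dox in the authors' deposited table, a ratio of 1.64, but with the status FAIL, which marks a failed fit, so that this ratio has no error and no call. The transcript of Polrmt also has the highest GC content among the nuclear members, 60.9%, a property that moved with the fold across the table, as described below. The part of GC content in the ratio of Polrmt was not tested.

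The replication enzymes showed no call. Polg, the catalytic subunit of the mitochondrial DNA polymerase, had 78.8 FPKM in plus_Dox and 54.7 FPKM in minus_Dox in the authors' deposited table (log2 fold 0.53 with an SE of 0.43, q = 0.543). Its SE was the largest of the 10, and the interval of its fold, 0.80 to 2.60, reaches past 2-fold and includes no change. The accessory subunit Polg2 was listed at 9.87 FPKM in plus_Dox and 8.47 FPKM in minus_Dox in the authors' deposited table (log2 fold 0.22 with an SE of 0.26, q = 0.728).

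Processing and turnover genes included the single call. Ptcd1, a pentatricopeptide protein that binds mitochondrial leucine tRNAs and their precursors, had 17.4 FPKM in plus_Dox and 10.9 FPKM in minus_Dox in the authors' deposited table, which is 1.59-fold higher. The interval of that fold was 1.17 to 2.17, and its q-value 0.030 in the authors' deposited table (SE 0.23 on a log2 fold of 0.67). This call ended when the median of rows with at least 1 FPKM was subtracted (log2 fold 0.47, q = 0.203). Under that subtraction 9.56% of the 17830 rows with a value were called. The call of Ptcd1 also ended when the trend described below was removed (log2 fold 0.25). Elac2, the nuclease that trims the trailing ends of tRNA precursors, was listed at 24.0 FPKM in plus_Dox and 18.3 FPKM in minus_Dox in the authors' deposited table (log2 fold 0.39 with an SE of 0.23, q = 0.317).

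Lrpprc and Slirp form a complex that keeps mitochondrial messenger RNAs stable and polyadenylated. Their messages differed in level and in sign. Slirp was the most abundant nuclear member in both groups, with 186 FPKM in plus_Dox and 133 FPKM in minus_Dox in the authors' deposited table (log2 fold 0.48 with an SE of 0.34, q = 0.446). For Lrpprc the authors' deposited table gives 34.2 FPKM in plus_Dox and 37.2 FPKM in minus_Dox (log2 fold -0.12, SE 0.21, q = 0.858). Pnpt1, a ribonuclease of mitochondrial RNA decay, stood at 35.6 FPKM in plus_Dox and 33.9 FPKM in minus_Dox in the authors' deposited table (log2 fold 0.07 with an SE of 0.19, q = 0.938). None of these 3 was called, and the difference in sign between Slirp and Lrpprc was not tested.

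**Figure D3:**
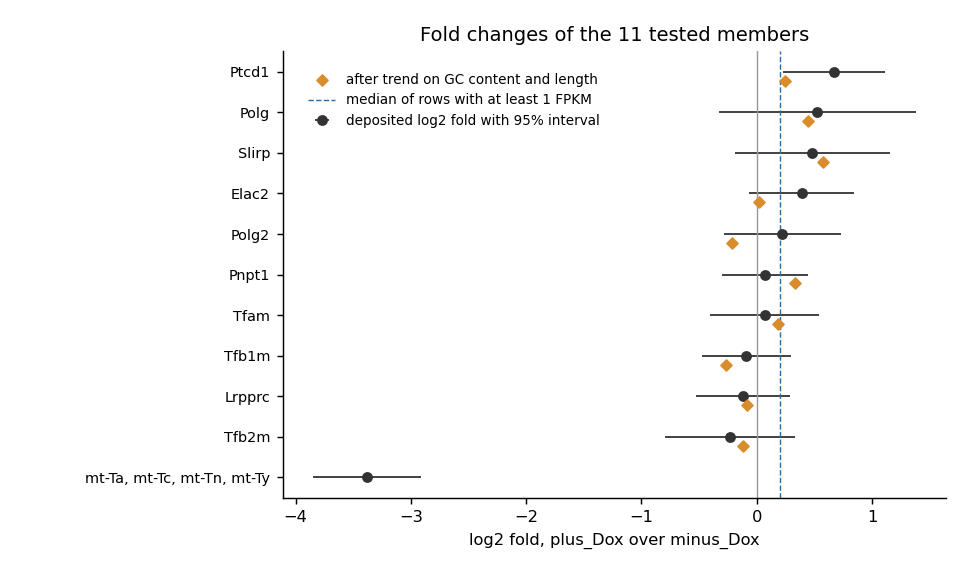
Deposited log2 folds of the 11 tested members with 95% intervals (circles), the folds after removal of a trend on transcript GC content and length (diamonds, none for the tRNA row), and the median of rows with at least 1 FPKM (dashed). The tRNA row lies at -3.38, apart from the nuclear members, which lie between -0.23 and 0.67.

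Composition of the transcripts moved with the folds across the table. Across the 11604 tested rows with at least 1 FPKM and a known transcript, Spearman's coefficient between log2 fold and GC content was 0.65, and between log2 fold and length -0.47; genes are not independent replicates, and the values share the same 6 libraries. The 10 tested nuclear members had a GC content of 40.6% (Pnpt1) to 56.1% (Ptcd1). Among these 10, Ptcd1 also had the largest log2 fold (0.67). Other members did not follow that order: Slirp, at 43.2%, had a log2 fold of 0.48, and Lrpprc, at 47.1%, had -0.12. After a smooth trend on GC content and length was removed, the 10 lay between -0.26 (Tfb1m) and 0.58 (Slirp) with a median of 0.10, 6 were above 0, 4 below, and 0 were called. Under the same removal 2.2% of the 16667 rows with a value were called, 1.25% higher and 0.954% lower in plus_Dox. The tRNA row joins several genes and has no value there. The trend takes each gene's longest annotated transcript (2701 bases for Slirp), and whether that one is expressed here was not tested.

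**Figure D4:**
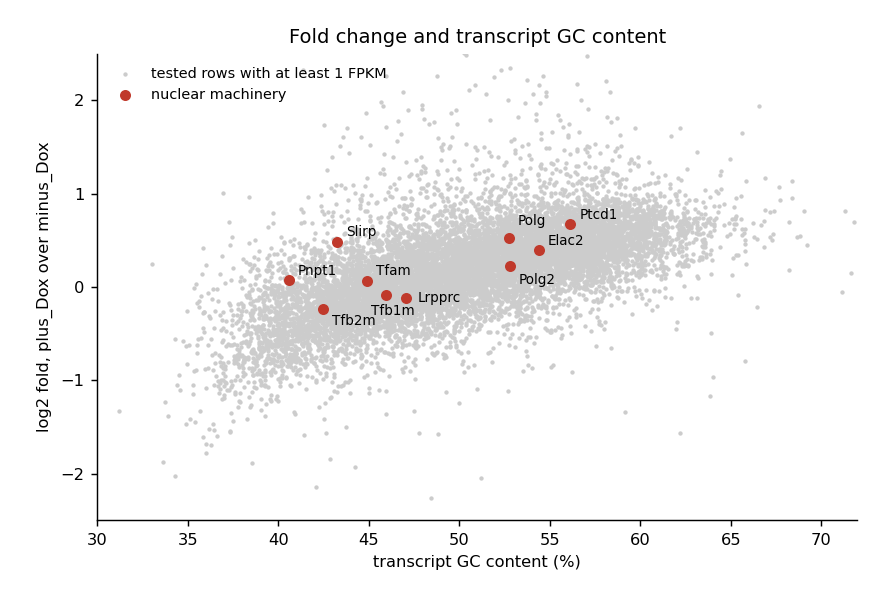
Log2 fold against GC content of the longest basic transcript for tested rows with at least 1 FPKM (grey; 30 rows fall outside the axes) and for the 10 tested nuclear members (red). Among these members Pnpt1 has the lowest GC content (40.6%) and Ptcd1 the highest (56.1%). After removal of the trend on GC content and length they lie between -0.26 (Tfb1m) and 0.58 (Slirp).

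Loci shared with other rows limit some members. Of the 11 nuclear members, 7 lie at loci that the table shares with rows of other genes. Tfb1m shares its locus with Tiam2 and Cldn20, Polg with Fanci and Gm16017, Elac2 with Arhgap44 and 3 further rows, Polg2 with Gm885 and U6, Slirp with Snw1, Alkbh1 and Mir3068, Tfb2m with Gm15480, and Ptcd1 with Bud31. How reads in overlapping parts were divided cannot be seen. Polrmt, Tfam, Lrpprc and Pnpt1 have loci of their own, whose lengths equal the gene lengths in GENCODE vM21. In build mm9 as the table gives it, these lie at chr10:79198868-79209326 (Polrmt), chr10:70688212-70701028 (Tfam), chr17:85104587-85190129 (Lrpprc) and chr11:29030744-29061828 (Pnpt1). The shared loci are chr1:181458186-181476398 (Tfb2m), chr17:3326573-3557713 (Tfb1m), chr7:86536815-86611248 (Polg), chr11:106612517-106640851 (Polg2), chr11:64792540-64976463 (Elac2), chr12:88767119-88813249 (Slirp) and chr5:145901231-145927977 (Ptcd1).

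Promoters of the nuclear members were searched on both strands for strings of 3 kinds, 1 of them in 2 forms. The window ran from 250 bases before to 50 bases after the start, in RefSeq sequences (GRCm38.p6), in which all 11 members were found. A loose form of the site of the respiratory factor NRF1, a pair of GCGC strings with 2 bases of any kind between them, was in Ptcd1 and Polrmt (6.23% of 32851 promoters). Its stricter form, with AT in that gap, was in 0 of 11 (0.971% of promoters). An ETS core, CCGGAAG, bound by GABP among others, was in 5 of 11, Polg, Polg2, Polrmt, Slirp and Tfam (8.86% of promoters). A Tcf/Lef string, CTTTGAT, was in Polrmt alone (3.73% of promoters). The 2 windows that hold the loose NRF1 form are printed with the matches in capitals. That of Ptcd1 is given because it is the nuclear member that was called, and that of Polrmt because it holds strings of all 3 kinds. In Polrmt 2 loose NRF1 matches overlap each other, and no string overlaps another kind. The Ptcd1 window is chr5:145167055-145167354 and the Polrmt window chr10:79746532-79746831, both on the minus strand and printed 5′ to 3′.
Ptcd1: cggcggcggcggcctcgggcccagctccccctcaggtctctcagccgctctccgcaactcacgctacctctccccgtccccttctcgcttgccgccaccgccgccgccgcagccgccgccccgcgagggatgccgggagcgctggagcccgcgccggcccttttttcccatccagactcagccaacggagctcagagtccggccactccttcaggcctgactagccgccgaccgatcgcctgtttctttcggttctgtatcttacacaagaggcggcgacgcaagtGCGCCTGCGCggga
Polrmt: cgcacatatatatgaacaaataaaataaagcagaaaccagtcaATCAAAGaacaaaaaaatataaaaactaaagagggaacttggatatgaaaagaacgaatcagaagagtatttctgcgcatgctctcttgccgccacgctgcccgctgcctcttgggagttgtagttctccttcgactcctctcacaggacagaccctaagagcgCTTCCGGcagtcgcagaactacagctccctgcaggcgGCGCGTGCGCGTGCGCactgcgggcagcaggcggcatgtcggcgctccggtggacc
A match is a string of letters and no evidence of binding, and a window without a match says nothing about the factor.

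The wider machinery was described through 7 lists of genes for mitochondrial DNA maintenance, transcription, RNA processing, RNA modification, translation, quality control and nuclear control, which include the nuclear members. Together 102 of their 105 rows were tested, 10 were called higher, 0 lower and 92 were not called. After subtraction of the median of rows with at least 1 FPKM, 4 were called higher and 1 lower, the regulator Yy1. Of the 17830 rows with a value after this subtraction, 9.56% were called. The 10 calls as deposited are 9.80% of the tested rows of the lists, beside 12.2% of all tested rows. The median log2 fold of the tested rows of the lists, 0.23, lay 0.03 above that of rows with at least 1 FPKM. The 10 calls were spread over 6 of the lists, and below a gene is said to rise where it was called higher. Polrmt, Endog and Ppargc1a had no test, and Spg7 was not analysed here.

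**Figure D5:**
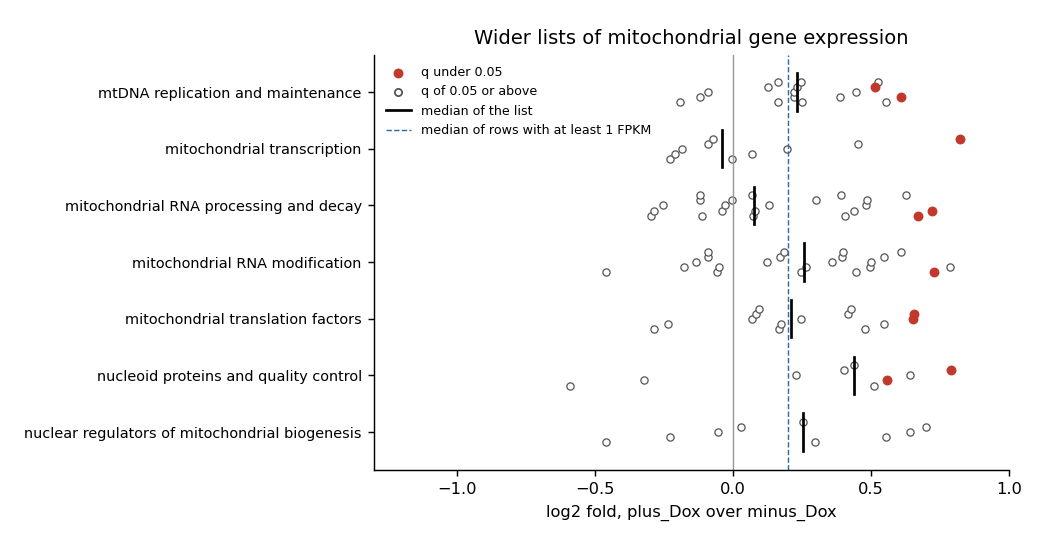
Deposited log2 folds of the tested genes of 7 lists, with called genes filled, the median of each list as a bar and the median of rows with at least 1 FPKM dashed. Called genes lie between 0.52 and 0.82, all to the right of 0.

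In the maintenance list 2 of 17 tested genes rose: Slc25a4, the ADP/ATP carrier, with 128 FPKM in plus_Dox and 84.3 FPKM in minus_Dox in the authors' deposited table (q = 0.0043), and Rnaseh1, which removes RNA from hybrids with DNA, with 22.4 FPKM in plus_Dox and 15.7 FPKM in minus_Dox (q = 0.040). The transcription list had 1 rise in 10, Mrpl12, a ribosomal protein that also binds Polrmt, at 248 FPKM in plus_Dox and 140 FPKM in minus_Dox in the authors' deposited table (log2 fold 0.82 with an SE of 0.17, q = 5.9e-05). RNA processing and decay had 2 rises in 22, Ptcd1 and Hsd17b10, a dehydrogenase that is also a subunit of mitochondrial ribonuclease P, at 124 FPKM in plus_Dox and 75.3 FPKM in minus_Dox in the authors' deposited table (q = 0.00038).

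RNA modification had 1 rise in 22, Qtrt1, a subunit of the enzyme that places queuosine in tRNAs, with 42.9 FPKM in plus_Dox and 25.9 FPKM in minus_Dox in the authors' deposited table (q = 0.00049). Of 14 translation factors 2 rose in the authors' deposited table, the elongation factor Tsfm with 41.4 FPKM in plus_Dox and 26.3 FPKM in minus_Dox (q = 0.012), and Ict1, a peptidyl-tRNA hydrolase of the mitochondrial ribosome, with 109.9 FPKM in plus_Dox and 69.7 FPKM in minus_Dox (q = 0.027). Of 9 quality control genes 2 rose in the authors' deposited table, the protease Clpp with 88.7 FPKM in plus_Dox and 51.3 FPKM in minus_Dox (q = 5.8e-05) and the prohibitin Phb2 with 376 FPKM in plus_Dox and 255 FPKM in minus_Dox (q = 0.028). None of the 9 tested nuclear regulators was called without that subtraction. Yy1, a transcription factor, had 30.9 FPKM in plus_Dox and 42.6 FPKM in minus_Dox in the authors' deposited table (q = 0.073), with a log2 fold of -0.46 as deposited and -0.66 after the subtraction. The respiratory factor Nrf1 stood at 39.5 FPKM in plus_Dox and 32.1 FPKM in minus_Dox in the authors' deposited table (q = 0.640).

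These 10 called genes had a median transcript GC content of 54.5%, against 48.9% for the genes of the lists that were not called, and a median length of 1317 against 2637 bases. None of the 10 was still called after the trend on both properties was removed. The part of transcript composition in these rises was not tested. Ssbp1, which coats single-stranded mitochondrial DNA and was named after its value was seen, was the 1 gene of the lists called after that removal (log2 fold 0.61, q = 0.032). It had 136 FPKM in plus_Dox and 114 FPKM in minus_Dox in the authors' deposited table (log2 fold 0.25, q = 0.450). The value after removal depends on the transcript taken for the gene, its longest annotated one.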

How the data were processed

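The authors deposited 1 table, in Cuffdiff's layout for genes. Its FPKM values are the authors', 1 per group of 3 libraries; its test statistic is a score of the authors, opposite in sign to the fold, and its p-value and q-value are those the authors deposited. Tools named in the submitters' processing notes, without roles, are Bowtie, TopHat2 2.0.8, Picard, Cuffdiff and Cufflinks 2.0.2, and the build is mm9. No source used here names the gene annotation. The design allowed for a model on single libraries, but the table has 0 such columns, so the authors' test was used (q under 0.05). The SE is the log2 fold divided by the statistic, and 95% intervals are normal. Each p-value was checked to be the normal tail of the statistic (0 differences above 1e-05).

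Transcript GC content and length, taken for each gene's longest basic GENCODE vM21 transcript (92.0% of tested rows), were fitted by cubic splines with 6 knots, tested on simulated data, in numpy 2.4.6 and scipy 1.17.1. Starts in the table count from 0 and are printed from 1. Members, lists and short-gene and sequence searches were chosen with earlier results of these data known; all members are named, and of the wider lists up to 3 calls each. From the planned lists 1 entry, C130026I21Rik, was dropped as an entry error, regardless of its value, and an older symbol planned for Tefm, which RefSeq gives to another gene, was replaced by 1110002N22Rik. P-values come from the authors' test or from SEs derived from it. What they measure beyond the spread between these libraries, which may be technical, cannot be seen.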

Additional observations from a re-analysis of the deposited data

How the results depend on the processing

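Under the alternatives that gave a value, the tRNA row stayed called and lower in plus_Dox, with a log2 fold from -3.58 to -3.35; removal of the composition trend and single-gene rows gave none, since the row joins several genes. The nuclear members had 0 calls at a q-value of 0.01, with a minimum of 2-fold, after subtraction of the median (1 at an unadjusted p under 0.05) and after trend removal (0 at an unadjusted p under 0.05), against 1 in the authors' test; Ptcd1 is that gene. Their median log2 fold was -0.05 after subtraction of the median and between 0.10 and 0.15 otherwise. The wider lists had 5 calls at a q-value of 0.01, 16 at 0.1, 0 with a minimum of 2-fold, 5 after subtraction of the median (4 higher, 1 lower, Yy1) and 1 after trend removal. Over all 18114 tested rows, 2210 calls became 1208 at a q-value of 0.01, 2961 at 0.1, 491 with a minimum of 2-fold and 367 after trend removal. Subtraction of the median turned the split of 1626 higher and 584 lower into 618 and 1087. The cause was not tested. No paired analysis was possible because the table holds no values of single libraries; for the same reason no replicate could be left out. FPKM of pooled groups keep no depth.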

Other observations

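Nuclear genes with near-identical copies of mitochondrial sequence were looked up, a search chosen after the values were seen. Alignment of the 37 mitochondrial genes to GENCODE vM21 transcripts (BLAST 2.17.0, at least 90% identity over at least 100 bases) found 17 nuclear genes, 9 of which have a row. Gm10925, identical to mt-Atp6 over 678 bases, has the status HIDATA, as mt-Cytb does. The authors' deposited table lists Gm10925 at 132 FPKM in plus_Dox and 0 FPKM in minus_Dox, a pair that likewise carries no direction and no fold. Gm10222, identical to mt-Nd4l over 294 bases, had 0.940 FPKM in plus_Dox and 0.298 FPKM in minus_Dox in the authors' deposited table (log2 fold 1.66 with an SE of 0.80, q = 0.181). Over all tested rows with at least 1 FPKM the median log2 fold was itself above 0, at 0.20. The 3 further tested copies also had log2 folds above 0 and were not called, with SEs from 0.31 to 1.37.

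Those are Gm13340 (97.6% identical to mt-Co1 over 1545 bases), Gm13341 (95.9% to mt-Co2 over 684 bases) and Gm13339 (96.7% to mt-Nd2 over 510 bases), which share 1 locus on chromosome 2. Their levels in the authors' deposited table were 1.98, 3.08 and 0.544 FPKM in plus_Dox and 1.54, 1.57 and 0.175 FPKM in minus_Dox. The remaining 4 rows, none above 0.021 FPKM, were not tested. How the authors' counting divided reads between these copies and the mitochondrial genes cannot be seen, so neither side of such a pair is certain.

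The 7 HIDATA rows with a value in plus_Dox alone are mt-Cytb, Gm10925, Ncl, Dnmt3b, Adarb2, Gm10357 and 7530422B04Rik.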
